A study of Mus musculus with 6 samples.

Results

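Contractile cytoskeleton genes and genes driven by the transcription factor SRF or the coactivator YAP were examined in mouse osteoclasts, the multinucleated cells that resorb bone, with and without verapamil. Verapamil blocks L-type voltage-gated calcium channels. The set holds 40 genes chosen by symbol out of the 16775 genes in the table, all 40 of which were present. It was put together with the verapamil and control values of these same libraries known. Every difference between the groups given for the 40 members is therefore a description, and no count of them is independent evidence.

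Macrophages grown from the tibial and femoral marrow of wild-type mice in 30 ng/ml M-CSF were differentiated with 50 ng/ml RANKL, 30 ng/ml M-CSF and 10% serum. Both groups shared this treatment. The verapamil group also received the drug, at a dose and for a time that the labels do not give, and the sample titles name day 5, while the protocol runs to day 7. Control replicates 1 and 3 and verapamil replicates 1, 2 and 3 were used, and control replicate 2 was not analysed here. Nothing in the labels says that replicates came from separate mice or cultures, and the p-values then reflect only how these libraries vary, which may be technical. RNA was read from whole cultures, in which fewer cells of a type and less RNA per cell cannot be told apart.

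Contractile cells build bundles of actin filaments that are pulled by myosin II and steadied by tropomyosin, calponin, transgelin and caldesmon. Serum response factor (SRF) switches on many of these genes from a DNA element called the CArG box, with the coactivators myocardin and MRTF, of which MRTF is held back by unpolymerised actin. YAP and TAZ, held back by the Hippo kinases, bind TEAD factors and drive genes such as Ccn1 and Ccn2. In smooth muscle and activated fibroblasts the whole programme is abundant. Macrophages and osteoclasts use a related set of broadly expressed proteins, such as the myosin Myh9 and the filamin Flna, in podosomes.

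Promoter sequences show which members carry these elements next to their start site. RefSeq windows on GRCm38.p6, from 250 bases before to 50 bases after an annotated start, were found for 33 of the 40 members. Those without one were Actg2, Tagln, Myh11, Csrp2, Tead1, Ccn2 and Thbs1. The CArG box (searched by its consensus, which reads alike on both strands) was present in 8 of the 33, or 24.2%, against 1.54% of 10070 tested genes with a window. These 8 were Acta1, Actc1, Cnn2, Fhl1, Fhl2, Myl6, Myl9 and Srf. The TEAD motif GGAATG, searched on both strands, was present in 16 of 33, or 48.5%, against 14.1% of tested genes. The pair of motifs can overlap only at their GG or CC ends. Acta1 held both, with CCAAATATGG 73 bases and the TEAD motif 46 bases before the start. Membership rests partly on genes known as SRF or YAP targets, so these shares describe the set. A match is a run of letters and not a shown binding site, and these windows leave out elements farther away or within introns. Only exact matches to the consensus were counted. A member not listed can still hold a near match, such as ccctatatgg and ccttgtttgg in the Acta2 window.

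The 250 bases before the start are shown for 4 members with a CArG box, 2 of which fell with verapamil and 2 of which did not pass the test, and for 2 YAP targets with TEAD motifs. Capitals mark the CArG box or the TEAD motif, on either strand.
Myl9 (chr2:156775214-156775463, plus strand): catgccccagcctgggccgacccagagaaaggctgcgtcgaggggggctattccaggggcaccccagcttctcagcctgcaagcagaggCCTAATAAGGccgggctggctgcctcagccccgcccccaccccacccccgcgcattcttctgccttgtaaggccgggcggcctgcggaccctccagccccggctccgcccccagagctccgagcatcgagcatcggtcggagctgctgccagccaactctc
Cnn2 (chr10:79988350-79988599, plus strand): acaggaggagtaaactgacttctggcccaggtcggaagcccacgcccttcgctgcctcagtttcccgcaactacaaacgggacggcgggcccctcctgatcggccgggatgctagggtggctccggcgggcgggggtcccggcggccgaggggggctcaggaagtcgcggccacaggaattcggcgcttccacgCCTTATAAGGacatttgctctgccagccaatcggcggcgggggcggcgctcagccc
Myl6 (chr10:128493010-128493259, minus strand): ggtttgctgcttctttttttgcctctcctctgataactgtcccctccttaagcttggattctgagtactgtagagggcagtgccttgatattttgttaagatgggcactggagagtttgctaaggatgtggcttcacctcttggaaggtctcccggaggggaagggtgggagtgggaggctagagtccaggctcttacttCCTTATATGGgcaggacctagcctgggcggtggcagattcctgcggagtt
Srf (chr17:46556163-46556412, minus strand): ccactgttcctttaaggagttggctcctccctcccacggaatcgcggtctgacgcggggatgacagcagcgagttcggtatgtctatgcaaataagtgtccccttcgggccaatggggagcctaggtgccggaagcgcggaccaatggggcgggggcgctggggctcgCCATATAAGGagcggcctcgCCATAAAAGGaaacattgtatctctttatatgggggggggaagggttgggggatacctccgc
Ccn1 (chr3:145649986-145650235, minus strand): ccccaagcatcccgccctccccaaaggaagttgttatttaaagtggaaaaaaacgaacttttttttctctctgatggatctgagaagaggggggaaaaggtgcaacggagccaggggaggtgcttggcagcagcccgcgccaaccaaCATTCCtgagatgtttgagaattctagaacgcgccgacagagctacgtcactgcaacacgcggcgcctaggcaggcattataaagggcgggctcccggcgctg
Ankrd1 (chr19:36119845-36120094, minus strand): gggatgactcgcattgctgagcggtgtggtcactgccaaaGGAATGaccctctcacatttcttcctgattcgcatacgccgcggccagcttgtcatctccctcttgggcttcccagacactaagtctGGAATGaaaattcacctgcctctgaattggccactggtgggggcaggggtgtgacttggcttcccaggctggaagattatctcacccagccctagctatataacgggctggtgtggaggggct
Cnn2 holds CCTTATAAGG 56 bases before its start and Myl6 holds CCTTATATGG 50 bases before the start of 1 of its 2 windows. Srf holds a pair of boxes, 82 and 62 bases before its start. The match in Myl9, CCTAATAAGG, lies farther away, at 161 bases. Ankrd1 has TEAD motifs 210 and 123 bases, and Ccn1 1 motif 103 bases, before the start.

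All but 1 of the tested smooth-muscle-type genes fell with verapamil, as did some of the broadly expressed cytoskeletal genes and of the regulators. In edgeR's quasi-likelihood test with Benjamini-Hochberg adjustment over all 12619 genes tested, 29 of the 39 tested members fell and 0 rose. Over all genes tested, 25.4% passed the same threshold, an adjusted p under 0.05, with 15.4% lower and 9.99% higher. At least 2-fold falls were found for 27 members, against 10.7% of all genes. The median log2 fold change of the members was -1.78, beside -0.01 for all genes. Since the members were chosen on this contrast, nothing is read from these counts. The 40th member, the cardiac actin Actc1, had 0 counts in both controls and 1 count in the verapamil libraries together, and was not tested. By role, 15 of 16 tested smooth-muscle-type genes fell, as did 5 of 11 broadly expressed cytoskeletal genes and 5 of 8 SRF and Hippo regulators. So did 4 of 4 members grouped as secreted or nuclear YAP targets, a group that leaves out YAP targets placed among the regulators, such as Amotl2. The medians on the log2 scale were -2.22, -0.58, -1.18 and -2.26. In 34 of the 39 tested members all 3 verapamil libraries lay below both controls, against 29.0% of all genes and 56.7% with groups apart in either direction.

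**Figure D1:**
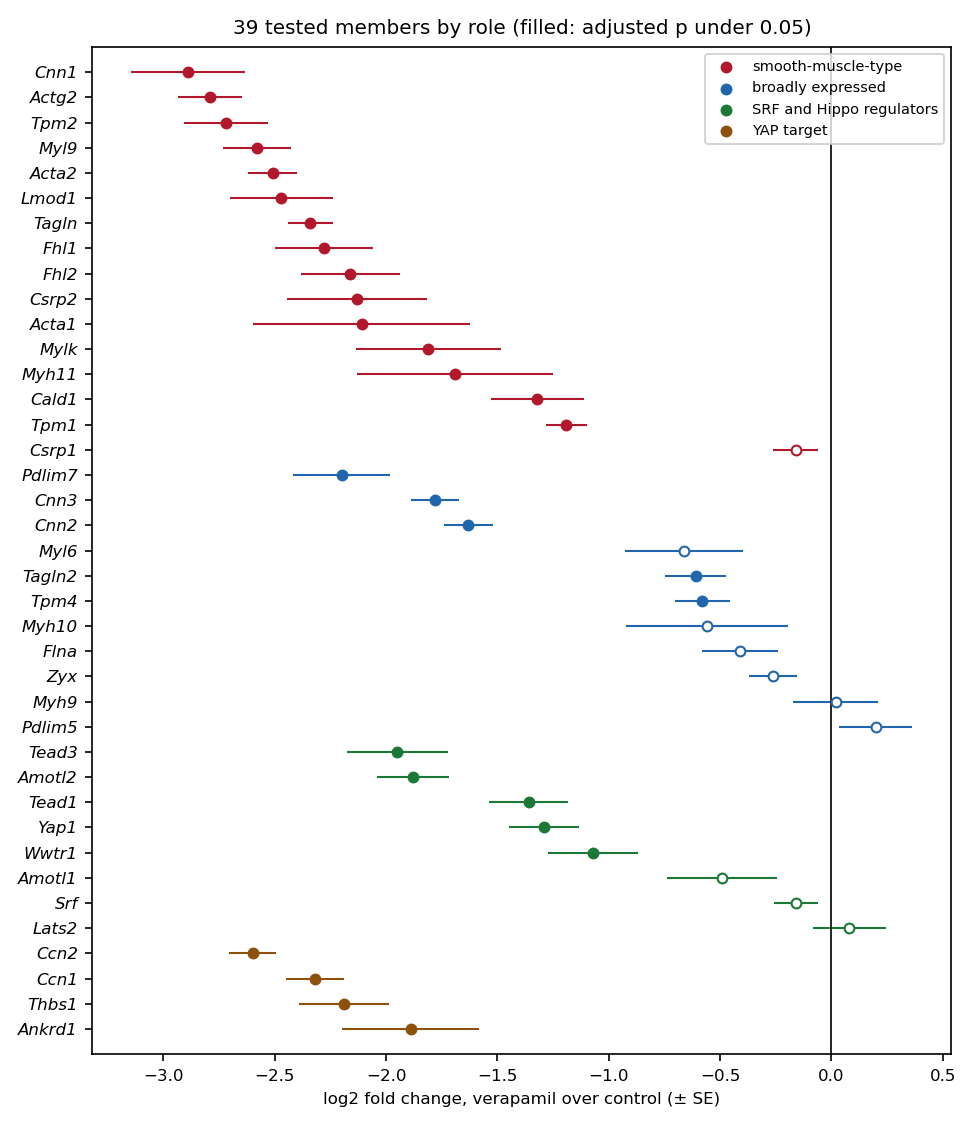
Log2 fold change (verapamil over control, bars ± SE from edgeR) of the 39 tested members, coloured by role, with filled points for adjusted p under 0.05. The smooth-muscle-type genes span -2.89 (Cnn1) to -0.16 (Csrp1), and the broadly expressed ones span -2.20 (Pdlim7) to 0.20 (Pdlim5).

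Acta2, the smooth muscle alpha-actin, was the most abundant muscle-type actin. It read 231 and 231 CPM (counts relative to the TMM-scaled library total) in the controls and 38.8, 45.1 and 38.1 CPM in verapamil replicates 1, 2 and 3. The groups lay far apart and both controls were alike, with a mean of 231 ± 0.488 CPM (SD, n = 2) against 40.6 ± 3.86 CPM (n = 3). The log2 fold change was -2.51 (SE 0.111, edgeR adjusted p = 0.000407). Actg2, the enteric smooth muscle actin, read 23.9 and 22.2 CPM in the controls and 3.20, 3.82 and 3.01 CPM under verapamil (log2 -2.79, SE 0.144, adjusted p = 0.000437). Acta1, the skeletal muscle actin, had only 67 counts over the control libraries and 21 over the treated ones (log2 -2.11, adjusted p = 0.0246). Its log2 fold change was -2.86 without verapamil replicate 2, which held the highest of the 3 verapamil values (0.620 against 0.197 and 0.197 CPM). Leaving out verapamil replicate 1 or 3 ended the call (adjusted p = 0.0908 and 0.0915). Actin genes are very similar in their coding sequence, and how reads that match several of them were counted is not given in the sources used here, so the split between them is uncertain. Acta2 (Entrez 11475) lies on chromosome 19 at 34240336 to 34255585 of GRCm38.

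The genes of actin-bundle proteins of smooth muscle also fell. Tagln, transgelin or SM22-alpha, read 147 and 132 CPM in the controls and 26.8, 28.3 and 27.7 CPM under verapamil (log2 -2.34, SE 0.0997, adjusted p = 0.000407). The gap between the groups was wider than the spread within either. An antisense gene, Gm48529, shares 67.86% of the exon bases of Tagln, and reads of the pair cannot be told apart if strand was not used. Cnn1, the smooth muscle calponin, had the lowest fold change of all members: 15.1 and 14 CPM against 1.43, 2.74 and 1.73 CPM (log2 -2.89, SE 0.254, adjusted p = 0.00107). Cald1, caldesmon, read 127 and 210.4 CPM against 63.1, 72.9 and 66.6 CPM (log2 -1.32, adjusted p = 0.00709). Lmod1, leiomodin, which seeds actin filaments in smooth muscle, read 4.27 and 5.93 CPM against 0.885, 0.930 and 0.937 CPM (log2 -2.47, adjusted p = 0.00123). In none of these genes did the groups overlap. Tagln (Entrez 21345) lies on chromosome 9 at 45929628 to 45936058.

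Genes of smooth muscle myosin and its kinase were lower with verapamil. Per length, their control levels ran from the 3.70th percentile of all tested genes for Myh11 to the 89.2nd for Myl9. Myl9, the regulatory light chain, read 53.8 and 45.7 CPM in the controls and 6.98, 9.09 and 8.82 CPM under verapamil (log2 -2.58, SE 0.154, adjusted p = 0.000437). Mylk, the kinase that phosphorylates that light chain, read 7.78 and 13.7 CPM against 2.71, 4.13 and 2.32 CPM (log2 -1.81, adjusted p = 0.0109, and 0.0572 without verapamil replicate 1). Myh11, the smooth muscle myosin heavy chain and a restricted marker of that cell type, was barely detected: 60 counts in the controls and 24 with verapamil. Its CPM values were 0.809 and 1.79 in controls 1 and 3 and 0.344, 0.465 and 0.394 with verapamil (log2 -1.69, adjusted p = 0.0364). Without control replicate 3 the log2 value was -1.0 and the call was lost (adjusted p = 0.103). Nor did it pass in fits lacking verapamil replicate 1, 2 or 3 (adjusted p = 0.124, 0.0919 and 0.118).

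Tropomyosins, the coiled-coil proteins along actin filaments, differed from each other. Tpm2 read 82.7 and 54.5 CPM in the controls and 10.2, 10.6 and 10.4 CPM under verapamil (log2 -2.72, SE 0.189, adjusted p = 0.000598). Tpm1 read 307 and 313 CPM against 144, 130.2 and 134 CPM, a smaller fall (log2 -1.19, SE 0.0928, adjusted p = 0.000767). Among the LIM-domain genes of the smooth-muscle-type group, Fhl2, an SRF target and cofactor, read 17.6 and 14.6 CPM against 4.53, 3.56 and 2.71 CPM (log2 -2.16, adjusted p = 0.00159). Its relative Fhl1 read 3.82 and 4.01 CPM against 0.689, 0.775 and 0.937 CPM (log2 -2.28, adjusted p = 0.00133). Groups stayed apart for both. Csrp2, the cysteine-rich LIM protein of vascular smooth muscle, read 9.98 and 5.42 CPM against 1.38, 1.86 and 2.02 CPM (log2 -2.13, adjusted p = 0.00542). Csrp1, its more widely expressed relative, was the smooth-muscle-type gene that did not pass. It read 213 and 186 CPM in the controls and 184, 176 and 176 CPM under verapamil (log2 -0.16, SE 0.1, adjusted p = 0.271, and 0.0124 at log2 -0.25 without control replicate 3). Per length, Csrp1 stood at the 95.4th percentile of all tested genes in the controls, beside the 95.9th for Acta2.

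**Figure D2:**
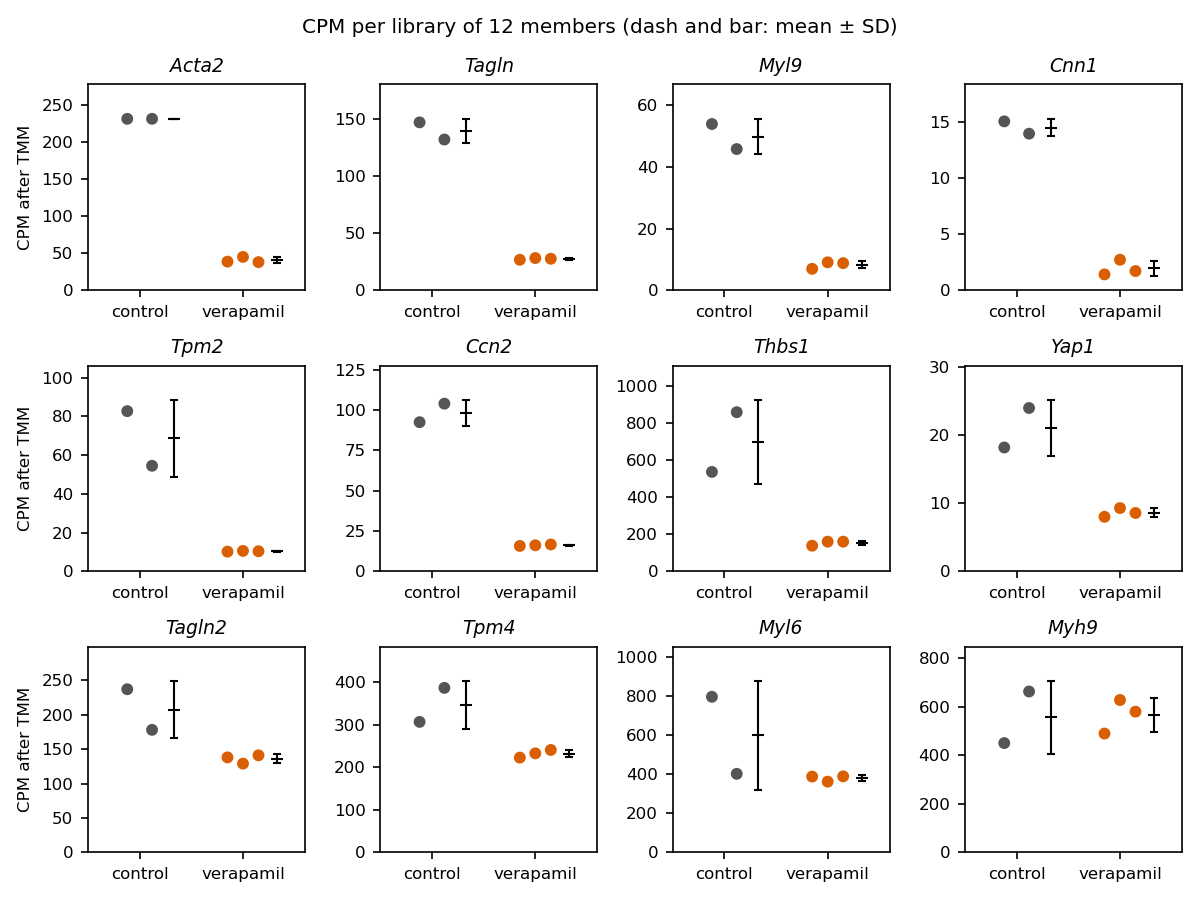
CPM after TMM in each library for 12 members (points: libraries; dash and bar: mean ± SD, n = 2 controls and n = 3 verapamil; axes start at 0). Acta2 stands at 231 CPM in both controls and 38.1 to 45.1 CPM with verapamil, whereas the Myh9 groups overlap.

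Broadly expressed cytoskeletal genes split into 3 that fell at least 2-fold, 2 that fell by less and 6 that did not pass. Pdlim7, an actin-bundle adaptor of the PDZ and LIM family, read 18.9 and 15 CPM in the controls and 3.64, 2.84 and 4.58 CPM under verapamil (log2 -2.20, SE 0.218, adjusted p = 0.00147). Cnn3, the acidic calponin, read 39.2 and 42.9 CPM against 11.6, 12.4 and 11.9 CPM (log2 -1.78, adjusted p = 0.000437). Cnn2, the calponin of blood and other non-muscle cells, read 70.9 and 74.4 CPM against 25.1, 21.8 and 23.3 CPM (log2 -1.63, adjusted p = 0.000543). For these 3 genes the groups lay apart by more than the spread within either group.

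Tagln2 and Tpm4 fell by less. Tagln2, the transgelin of blood cells, read 237 and 178 CPM in the controls and 138, 129 and 141 CPM under verapamil (log2 -0.61, SE 0.139, adjusted p = 0.0236). Tpm4, a non-muscle tropomyosin, read 307 and 387 CPM against 223, 233 and 241 CPM (log2 -0.58, SE 0.123, adjusted p = 0.0191). Leaving out any 1 verapamil library ended both calls (adjusted p from 0.0817 to 0.105), with log2 fold changes between -0.64 and -0.55. Without control replicate 1 the value of Tagln2 was -0.39 (adjusted p = 0.0044).

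The other 6 did not pass, and in most of them the controls differed widely. Myl6, the essential light chain of non-muscle myosin, read 796 CPM in control 1 and 402 in control 3, beside 388, 362 and 389 CPM under verapamil (log2 -0.66, SE 0.265, adjusted p = 0.119). It stood at -1.07 without control replicate 3 (adjusted p = 7.85e-06, with no spread between controls) and at -0.08 without control replicate 1. Flna, filamin A, which crosslinks actin, read 567 and 805 CPM against 461, 567 and 526 CPM (log2 -0.41, adjusted p = 0.134, and -0.63 with adjusted p = 0.00159 without control replicate 1). Myh9, the main non-muscle myosin heavy chain, read 449.8 and 662 CPM against 489, 627 and 579 CPM. Its groups overlapped (log2 0.02, SE 0.191, adjusted p = 0.938), and its sign depended on the controls, at -0.22 without control replicate 1 and 0.33 without control replicate 3 (adjusted p = 0.0425). Myh10, the second non-muscle heavy chain, read 7.37 and 17.1 CPM against 6.34, 9.71 and 8.82 CPM (log2 -0.56, adjusted p = 0.287), and its value was -1.04 (adjusted p = 0.00294) without control replicate 1 and 0.17 without control replicate 3. Pdlim5, another PDZ and LIM protein, also overlapped. It read 79.7 and 115 CPM against 106, 114 and 114 CPM (log2 0.20, adjusted p = 0.400), or -0.04 without control replicate 1 and 0.48 without control replicate 3 (adjusted p = 0.000832). Zyx, zyxin of focal adhesions, read 151 and 129 CPM against 118, 112 and 121 CPM (log2 -0.26, adjusted p = 0.128, and 0.00275 at log2 -0.37 without control replicate 3).

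The wide controls went with transcript length. Control 1 minus control 3, on the log2 CPM scale, had a Spearman correlation of -0.65 with exon length across 12455 tested genes, and of -0.80 across the 39 tested members, which share these 2 libraries. All 11 members with at least 5000 exon bases were lower in control 1 than in control 3 (median -0.68). Those under 2500 bases had a median of 0.17, with 10 of 16 higher in control 1. Myl6 (exon length 1690) differed by 0.99 and Myh10 (8647) by -1.21. With each library's length trend removed, 33 members were called and 0 of them rose. More genes of the whole table were also called higher under this setting than in the main fit. The share of all genes called lower under it is not given here, so nothing is read from the member count. Under that setting Flna, Myh10, Amotl1 and Zyx were also called lower (log2 -0.63, -0.75, -0.72 and -0.34). This setting was chosen after the data were seen.

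**Figure D3:**
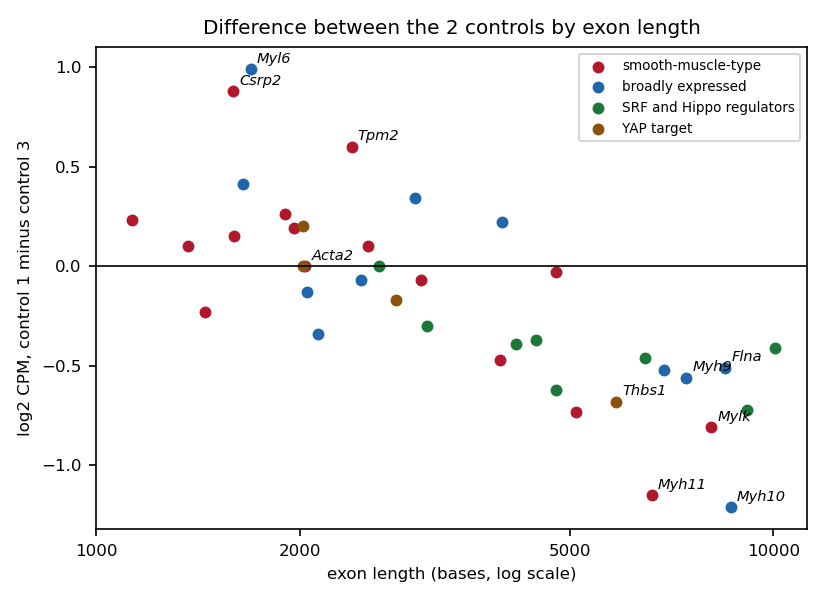
Difference in log2 CPM between control 1 and control 3 against exon length (bases, log scale), 1 point per tested member coloured by role. Long genes such as Myh10 (-1.21) and Myh11 (-1.15) lie below 0, short ones such as Myl6 (0.99) above it, and Acta2 lies at 0.

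In the transgelin, calponin, tropomyosin, cysteine-rich protein and actin families the muscle-type gene made up a smaller share with verapamil than in the controls. Shares were taken from CPM per kilobase of exon within a library, so they do not depend on library scaling. Tagln made up 39% and 43.4% of transgelin transcripts in the controls and 16.7%, 18.5% and 16.9% with verapamil, the rest being Tagln2. Tpm2 made up 8.89% and 5.84% of the 4 tropomyosin genes in the controls and 1.75%, 1.78% and 1.72% with verapamil. Tpm1 went from 16.4% and 16.7% to between 10.9% and 12.3%. Cnn1 was 11.1% and 9.80% of the calponins in the controls and 3.45% to 6.78% with verapamil, while the mean share of Cnn3 was 36.2% in both groups. Csrp2 was 5.44% and 3.45% of the Csrp1 and Csrp2 pair in the controls and 0.911% to 1.39% with verapamil. The muscle-type actins together made up 3.66% and 5.33% of all actin in the controls and 1.21% to 1.55% with verapamil, beside the cytoplasmic actins Actb and Actg1. Apart from Cnn3, both control shares of these genes lay above all verapamil shares, and no test was made of the shares. Among myosin II heavy chains, Myh9 made up 97.5% to 98.8% in every library.

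**Figure D4:**
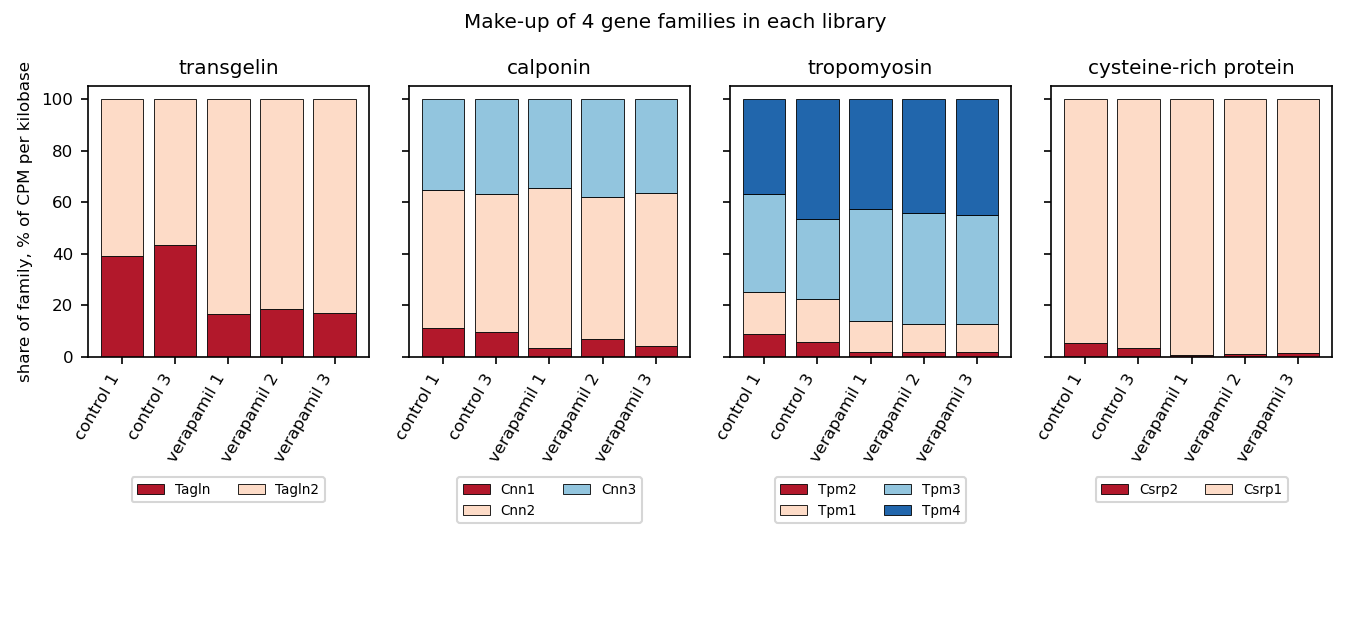
Share of each gene in its family (% of CPM per kilobase within a library), stacked, for 2 control and 3 verapamil libraries. The muscle-type gene at the bottom of each bar takes less of the bar with verapamil, as for Tagln (39% and 43.4% against 16.7% to 18.5%).

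Levels per length, set as CPM per kilobase of exon and averaged over the controls, placed broadly expressed genes first. Myl6 was highest among the members at 354, followed by Tpm4 at 163, Tagln2 at 126 and Thbs1 at 119.6. Acta2 followed at 114 and Csrp1 at 102, and the order among Tagln2, Thbs1 and Acta2 lies within the spread of the controls. Tagln stood at 87.3 and Flna at 80.9. At the low end, Myh11 had 0.197 and Acta1 1.01. With verapamil Acta2 stood at 20 and Tagln at 17.3, while Tagln2 stood at 82.4.

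SRF, YAP and their partners were measured next. Srf itself, which encodes serum response factor, read 39 and 39.1 CPM in the controls and 33.8, 35.5 and 35.7 CPM with verapamil. The 3 verapamil values lay just below both controls (log2 -0.16, SE 0.0993, adjusted p = 0.275). Yap1 read 18.2 and 24.0 CPM against 8.02, 9.30 and 8.58 CPM (log2 -1.29, SE 0.156, adjusted p = 0.00277). Wwtr1, which encodes TAZ, the paralog of YAP, read 9.98 and 15.4 CPM against 6.15, 6.15 and 5.77 CPM (log2 -1.07, SE 0.203, adjusted p = 0.0127). It did not pass in fits that dropped verapamil replicate 1, 2 or 3 (adjusted p = 0.0589, 0.0510 and 0.0598). The DNA-binding partners fell too. Tead1 went from 19.3 and 25.6 CPM to 7.87, 10.2 and 8.23 CPM (log2 -1.36, adjusted p = 0.00375), and Tead3 from 3.37 and 4.14 CPM to 0.984, 0.826 and 1.08 CPM (log2 -1.95, adjusted p = 0.00244).

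Of the genes that restrain YAP, Amotl2, an angiomotin that is itself a YAP target, read 15.1 and 19.6 CPM in the controls and 5.16, 4.44 and 4.53 CPM under verapamil (log2 -1.88, SE 0.163, adjusted p = 0.00103). Its relative Amotl1 read 13.3 and 21.8 CPM against 10.2, 14.6 and 12.6 CPM, with overlapping groups (log2 -0.49, adjusted p = 0.188, and 0.00498 at log2 -0.80 without control replicate 1). The kinase gene Lats2 also overlapped, with 34.2 and 47.0 CPM against 39.6, 46.7 and 42.8 CPM (log2 0.08, adjusted p = 0.721). Its value was -0.12 without control replicate 1, -0.03 under upper quartile factors and 0.33 without control replicate 3 (adjusted p = 0.0316). An overlapping transcript on the same strand, Gm49361, shares 42.39% of the exon bases of Lats2.

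The 4 members grouped as secreted or nuclear YAP targets all fell, by 1.89 to 2.60 on the log2 scale. Ccn2, connective tissue growth factor, read 92.5 and 104 CPM in the controls and 15.8, 16.2 and 16.7 CPM under verapamil (log2 -2.60, SE 0.106, adjusted p = 0.000407). Ccn1, the matricellular protein CYR61, read 73.8 and 64.4 CPM against 14.7, 14.3 and 12.4 CPM (log2 -2.32, SE 0.129, adjusted p = 0.000437). Thbs1, thrombospondin 1, was the most abundant of the 4, with 538 and 861 CPM against 139, 161 and 161 CPM (log2 -2.19, SE 0.203, adjusted p = 0.00123). Ankrd1, a nuclear ankyrin repeat protein, read 8.90 and 8.92 CPM against 3.49, 2.17 and 1.53 CPM (log2 -1.89, SE 0.308, adjusted p = 0.00772). No verapamil library reached a control in any of the 4. The gene of Ccn2 (Entrez 14219) lies on chromosome 10 at 24595442 to 24598683 and shares 23.24% of its exon bases with the antisense gene Gm15270. Thbs1 (Entrez 21825) lies on chromosome 2 at 118111876 to 118127133.

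Other genes of the pathways came from lists of known targets and components and not from the members. These lists, and the marker lists below, were also chosen with earlier results of these data known. Their counts are a description and not independent evidence. Of 20 other cytoskeletal targets of SRF and MRTF, 12 fell and 1 rose (median log2 -0.63), beside 15.4% lower and 9.99% higher among all genes. The list summed to 7451 to 9419.9 CPM in the controls and 5741 to 5903 CPM with verapamil. The 12 were 4 without verapamil replicate 1 and 5 without verapamil replicate 2 or 3. The largest falls were in Nexn (log2 -2.04, adjusted p = 0.00490), Tgfb1i1 (-2.01, adjusted p = 0.000948), Smtn, the smooth muscle protein smoothelin (-1.76, adjusted p = 0.00118), and Pdlim1 (-1.47, adjusted p = 0.00433). Actb, beta-actin, read 4080.3 and 2469 CPM in the controls and 1684, 1572 and 1668 CPM under verapamil (log2 -1.0, adjusted p = 0.0168, with -0.58 without control replicate 1). Actg1, gamma-actin, read 2619 and 2035 CPM against 1649.9, 1555 and 1646 CPM (log2 -0.53, adjusted p = 0.0300, with -0.33 without control replicate 1). Both cytoplasmic actin calls were lost without verapamil replicate 1, 2 or 3 (adjusted p from 0.0682 to 0.130). Fblim1, an adaptor of focal adhesions, was the gene that rose (107 and 136 CPM against 204, 213 and 203 CPM, adjusted p = 0.00860), and it was picked out for that.

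Immediate early genes, which SRF drives with the ternary complex factors after growth factor signals, fell in 6 of 11 cases and rose in 0 (median log2 -0.71). Over all genes tested, 15.4% were lower and 9.99% higher. The summed level of the list was 920 to 1004 CPM in the controls and 927 to 986 CPM with verapamil. Fos fell from 46.3 and 43.7 CPM to 5.95, 5.63 and 8.08 CPM (log2 -2.78, adjusted p = 0.000472) and Egr1 from 33.5 and 31.0 CPM to 10.6, 9.81 and 10.7 CPM (log2 -1.63, adjusted p = 0.000543). Ier2 and Ier3 changed by -0.94 and -0.76 (adjusted p = 0.0156 and 0.00387), and the Ier2 call needed all 3 verapamil libraries (adjusted p from 0.0602 to 0.0711 with any 1 of them left out). Ier2 stood at -0.60 without control replicate 1. Verapamil replicate 3 stood apart in Egr3, which was picked out for this spread, and not in Egr1. Egr3 read 7.06 and 7.90 CPM in the controls, 1.72 and 2.94 CPM in verapamil replicates 1 and 2 and 36.9 CPM in replicate 3. Its log2 fold change was 0.89 (adjusted p = 0.605), and -1.68 (adjusted p = 0.0288) without that library.

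Of 17 other Hippo pathway components 5 fell and 1 rose (median log2 0.20), with 10 higher without control replicate 3 and 8 lower without control replicate 1. Without verapamil replicate 1, 2 or 3 there were 3 lower and 0 higher. The share over all genes tested was 15.4% lower and 9.99% higher. The Hippo list, with its untested genes, summed to 751 to 1202 CPM in the controls and 1130.4 to 1239 CPM with verapamil. Tead2 fell by 1.87 on the log2 scale (adjusted p = 0.00762), Vgll3, a TEAD cofactor, by 1.67 (adjusted p = 0.00105), and Ajuba, a LIM protein that binds the LATS kinases, by 1.45 (adjusted p = 0.00689). Nf2, the gene of merlin, an upstream activator of the Hippo kinases, was the gene that rose (log2 0.82, adjusted p = 0.0229) and was picked out for that. Fat4, an atypical cadherin, had log2 -0.98 (adjusted p = 0.0497), and did not pass without control replicate 3 (log2 -0.47) or without any 1 of the verapamil libraries. Of 17 other YAP and TEAD targets 9 fell and 1 rose (median log2 -1.05), and 5 fell without verapamil replicate 1 or 3. Their summed level was higher with verapamil, at 1152 to 1296 CPM against 706 to 1046 CPM in the controls. F3, tissue factor, fell by 1.75 (adjusted p = 0.00607), Ccdc80 by 1.61 (adjusted p = 0.00128) and Tgfb2 by 1.54 (adjusted p = 0.00262). Gadd45a, a stress gene, rose from 109 and 78.0 CPM to 267, 252 and 249.5 CPM (log2 1.45, adjusted p = 0.00214).

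**Figure D5:**
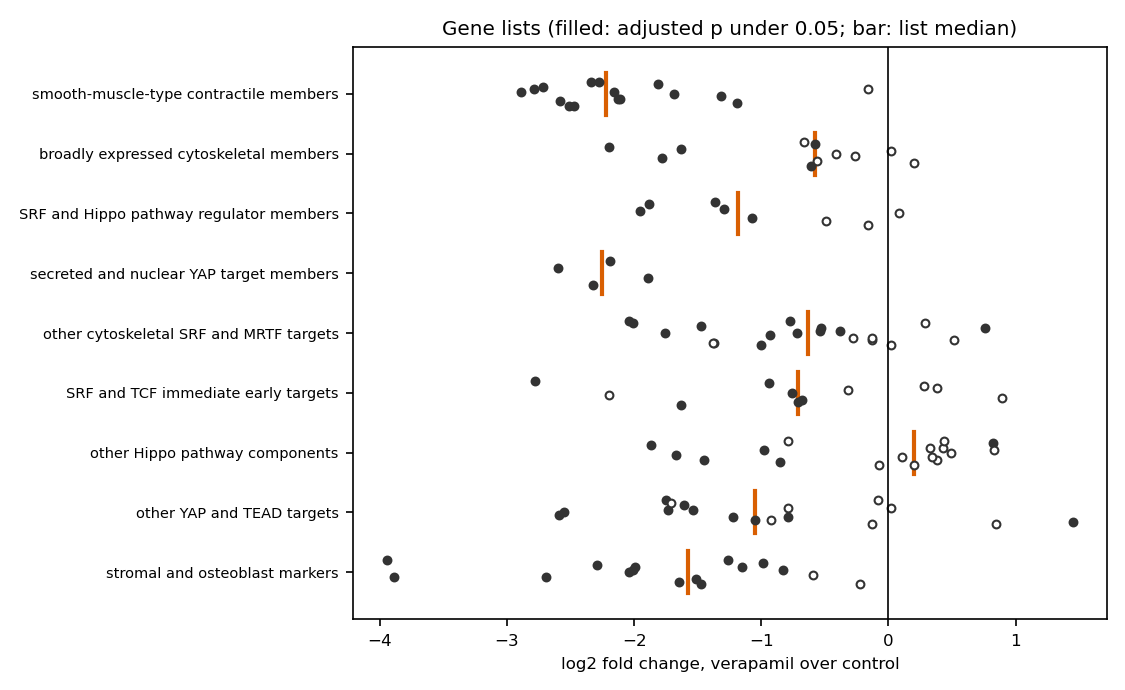
Log2 fold change (verapamil over control) of each tested gene in the 4 member groups, the 4 other pathway lists and the stromal markers, with filled points for adjusted p under 0.05 and an orange bar at the list median. Medians run from -2.26 for the YAP target members to 0.20 for the other Hippo components, and the stromal markers stand at -1.58.

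Motif matches can be set beside the calls for genes outside the member list. Of 148 tested non-member genes with a CArG box in a promoter window, 41 (27.7%) fell and 10 (6.76%) rose, while 14.3% and 9.97% of 10038 non-member genes with a window did so. For the TEAD motif the shares were 15.8% lower and 9.52% higher over 1408 genes. These shares are a description, and no test was made of them.

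Marker lists of other cells did not all move the same way. Over all genes tested, 15.4% were lower and 9.99% higher. The culture carried osteoclast markers (7 of 9 fell, 1 rose; summed level 6956 to 7612 CPM in controls and 3234 to 3383 CPM with verapamil) and macrophage markers (6 of 9 fell, 1 rose, median log2 -0.61; 26457 to 27193 CPM and 39904 to 43538 CPM). Mmp9 and Ctsk, the most abundant osteoclast markers, had log2 fold changes of -1.81 and -1.22 (adjusted p = 0.000437 and 0.00136). The 6 macrophage markers that fell were C1qa (log2 -2.63), Cx3cr1 (-2.46), Fcgr1 (-2.36), Cd14 (-0.92), Csf1r (-0.61) and Adgre1 (-0.43). Mrc1 was not called (log2 0.11). Most of the macrophage sum was Lyz2, at 21089 and 21806 CPM in the controls and 39559, 35953 and 37349 CPM with verapamil. Lyz2, the most abundant macrophage marker, rose by 0.81 (adjusted p = 0.00317), and Cd68 had log2 0.19 (adjusted p = 0.247), with 0.32 (adjusted p = 0.00747) without control replicate 1 and 0.42 (adjusted p = 0.0098) with the length trend removed. It also carried markers of stromal cells and osteoblasts. Of the 16 tested, 14 fell and 0 rose, with a median log2 fold change of -1.58. Their summed level was 1398 to 1609.9 CPM in the controls and 572 to 594 CPM with verapamil. The summed level of the smooth-muscle-type members was 1245 to 1257 CPM and 476 to 491 CPM, beside their median log2 fold change of -2.22. The uncalled Csrp1 was a large part of that sum, with 179 CPM on average under verapamil. The collagen genes Col1a1 and Col1a2 were the highest stromal markers and fell by 1.47 and 1.15 (adjusted p = 0.000743 and 0.00127). Lum, a stromal marker, had 6 counts in all. Of 10 further markers of smooth muscle and pericytes 7 were tested and 4 fell, and the list summed to 19.2 to 25.1 CPM in the controls and 9.17 to 10.6 CPM with verapamil. In this list Rgs5 had log2 -1.05 (adjusted p = 0.00747) and Notch3 -0.69 (adjusted p = 0.136). Notch3 stood at -1.08 (adjusted p = 0.00141) without control replicate 1, at -0.88 (adjusted p = 0.0106) with the length trend removed and at -0.13 without control replicate 3. Des, desmin, had 21 and 2 counts and Pln, phospholamban, 1 and 0. Skeletal muscle markers were near 0, with 1.84 CPM at most for the sum of 8 genes, led by Ttn and Mylpf (adjusted p = 0.200 and 0.623). Megakaryocyte and platelet markers summed to 22.9 to 36.2 CPM in the controls and 1.33 to 1.57 CPM with verapamil, led by Pf4 and Ppbp, which fell by 5.06 and 2.85 (adjusted p = 0.000437 and 0.00387), and Gp9 and Gp6 were at or near 0. Endothelial markers summed to 6.47 to 8.71 CPM and 28.4 to 33.6 CPM. That sum was mostly Kdr, which rose by 2.84 (adjusted p = 0.00118), with Emcn next at log2 -1.89 (adjusted p = 0.0236, and 0.0709 without verapamil replicate 2), while Cdh5, Tek and Tie1 were too low to be tested. The part of stromal or muscle-type cells in the lower values of the members was not tested.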

How the data were processed

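RNA-seq libraries were made with a SMARTER mRNA kit from 1.3 ug of Trizol-extracted RNA, per the labels' protocols. The authors deposited estimated counts per gene, not normalized as judged from the values. The builds GRCm38 and mm10 are listed in the submitters' processing notes; aligner, counter, annotation and strand setting are not given there or in any other source used here. Libraries held 20202340 to 21494523 counts. Counts were rounded. In R 4.3.3, edgeR 4.0.16 used TMM scaling, filterByExpr at its defaults (at least 10 counts, total at least 15) and a quasi-likelihood model with group as the only term (3 residual degrees of freedom), planned for 3 against 3 libraries. SE is the absolute log2 fold change over the square root of F. In simulated counts for verapamil against control (12409 genes), 6% of genes changed by 0.5, 66% of those changed by 1 and 96% of those changed by 2 on the log2 scale were recovered, with 7 false among 138 calls. The simulation changed 200 genes and drew each gene independently, without the difference between the controls that went with transcript length. Its rates need not hold for these libraries. Differences between libraries exceeded counting noise in every pair within a group. Exon lengths and shared exon bases come from GENCODE M21 (lengths for 16416 of 16775 genes), and positions and promoters from RefSeq GRCm38.p6, read with Python 3.11.15. Members and lists were chosen with earlier results of these data known. One further pathway list is not reported here. Named beside the members were up to 4 called genes of each pathway list with the largest change and a mean of at least 1 CPM. So were the 2 highest genes of each marker list, the other macrophage markers, and Actb and Actg1. Alternatives were DESeq2 size factors, upper quartile factors, other filters, DESeq2 1.42.0, a replicate block, leaving out each library and, added later, removal of the length trend.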

Additional observations from a re-analysis of the deposited data

How the results depend on the processing

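Of the 29 members called lower, 23 were called lower under every one of the 12 alternatives that gave a value, and none changed sign. The number of members called lower was 27 under the stricter filter, 32 with the replicate block, 33 with the length trend removed, and 23 to 32 when 1 library was left out. Members called higher numbered 0, except 3 without control replicate 3 (Myh9, Pdlim5 and Lats2, of which 2 are broadly expressed genes and 1 a regulator). Fits that leave out 1 library, control or verapamil, have fewer residual degrees of freedom than the main fit. Those that leave out a control also hold no spread between controls. Over all genes, 440 to 3983 were higher and 1009 to 3825 lower when 1 library was left out, and 2213 were higher with the length trend removed. Upper quartile factors moved the median over all genes on the log2 scale from -0.01 to -0.13, with 915 genes higher and 2331 lower, against 1261 and 1939.

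Replicate numbers could not be shown to pair the libraries, since only 2 pairs exist. Their deviations from the group means correlated at 0.289 for number 1 and 0.0224 for number 3. Control replicate 3 and verapamil replicate 2, with unlike numbers, also correlated at 0.289. The deviations of 2 controls mirror each other, so these correlations cannot decide it. With the replicate number as a block, 1342 genes were higher and 1975 lower. Verapamil replicate 2 has no control of its number in this fit and adds nothing to the contrast. The contrast then rests on 2 pairs, with fewer residual degrees of freedom than in the main fit. Under that block 2 other Hippo components were higher and 2 other YAP and TEAD targets higher, and the call of Actg1 was lost (adjusted p = 0.0674). Acta1 stood at -2.86 under the block, and Myl6 (-0.54), Myh10 (-0.60) and Amotl1 (-0.59) were called lower (adjusted p = 0.0397, 0.0434 and 0.0346).

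Among broadly expressed cytoskeletal genes, 8 were lower with the length trend removed. With 1 library left out, 3 to 7 were lower and 0 to 2 higher, and 0 to 1 of the regulators were higher. Other cytoskeletal SRF and MRTF targets had 4 to 14 lower and 1 to 3 higher, and immediate early targets 0 to 1 higher (1 with the length trend removed). Other Hippo components had 3 to 8 lower and 0 to 10 higher, and 2 higher with the length trend removed. Other YAP and TEAD targets had 5 to 13 lower and 1 to 4 higher, and 2 higher with DESeq2 size factors, no filter, DESeq2's Wald test or the length trend removed. The cause of these shifts was not tested.

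The genes whose sign changed were not called with all 5 libraries. Lats2 was -0.03 under upper quartile factors, -0.09 with the length trend removed and -0.12 to 0.33 over left-out libraries. Myh9 was -0.09 under upper quartile factors, -0.02 with the stricter filter, -0.04 with the replicate block, -0.17 with the length trend removed and -0.22 to 0.33 over left-out libraries. Left-out libraries gave -1.04 to 0.17 for Myh10, -0.04 to 0.48 for Pdlim5, -1.68 to 1.41 for Egr3 and -0.65 to 0.18 for Mylpf, which was 0.06 with the length trend removed. Acta1 and Myh11 had the fewest counts among the tested members, with 67 and 60 in the controls.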
